A study of Mus musculus with 2 samples.

Results

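The cells described here are the early erythroid cells of the E14.5 mouse fetal liver, that is, cells of the red blood cell lineage with little alpha-globin mRNA. Their members were chosen by measured values. Cells with at least 3 UMIs (unique molecular identifiers, 1 per captured mRNA molecule) of the erythroid transcription factor Klf1, and with few UMIs of stem cell, granulocyte, megakaryocyte, monocyte and mast cell genes, formed an erythroid gate. The gated cells of both libraries were ranked together by the share of their UMIs that came from the alpha-globin genes Hba-a1 and Hba-a2, and were cut into 3 bins of equal size. The cells described are those of the low bin. It held 3174 cells, 1602 from the knockout and 1572 from the control library, of 9521 gated cells, 14101 cells that passed the cell filter and 14688 barcodes in all.

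Lineage-negative c-Kit+ fetal liver cells, a sort that enriches blood stem and progenitor cells, were measured by droplet 3' RNA sequencing (10x Genomics). The knockout library came from CD45.2(+) Vav1-iCre Brd9fl/fl embryos and the control library, titled WT, from CD45.2(+) Brd9fl/fl embryos, both C57BL/6 at E14.5. Brd9 encodes a bromodomain protein of non-canonical BAF, a chromatin remodelling complex, and the comparison asks which transcripts differ when it is deleted in blood cells. Vav1-iCre drives recombination throughout the blood lineages, so the deletion was not limited to erythroid cells. A library with the recombinase and no floxed allele was not analysed here, so effects of the recombinase and of the deletion cannot be told apart. There was 1 library per genotype and the sources used here do not give the number of embryos in each. The spread between embryos is therefore unknown, no test between genotypes was possible, and every interval below covers counting error only.

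As background, red cell production passes from progenitors that carry the receptor Kit, through erythroid progenitors that respond to erythropoietin, to erythroblasts that fill with haemoglobin. The transcription factors Gata1, Klf1 and Tal1 switch on globin, haem synthesis and membrane genes, while Gata2, Myb and Kit are switched off. Fetal liver is the main site of this definitive erythropoiesis in midgestation mouse embryos. BAF complexes move nucleosomes, and the non-canonical form is set apart by Brd9 and by either Bicra or Bicral.

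The targeted gene followed the labels. Brd9 (chr13:73937811-73960895, mm10) was at 4.998 in knockout against 23.1 CPM in control cells, a log2 ratio of knockout over control of -2.21 (95% interval -2.38 to -2.04). CPM is the number of UMIs of a gene summed over the cells, per 1000000 UMIs of all genes. By cell sex, read from Xist and Y-linked genes, Brd9 was at 5.46 CPM in female and 3.96 CPM in male knockout cells, and 24.4 CPM in female and 23.1 CPM in male control cells. After each cell was thinned to 15000 UMIs, at least 1 Brd9 UMI was found in 6.90% of knockout and 28.4% of control cells, against 17.7% and 61.7% before thinning. The sources used here do not name the floxed exons, so 3' UMIs check the labels only by the amount of transcript. Both sexes of the knockout lay below both sexes of the control.

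The libraries differed in depth and in sex. The low bin held 68831720 knockout and 73356198 control UMIs, and the median cell had 40942.5 and 44103.5 UMIs from 6218 and 6335.5 genes. Median mitochondrial shares were 1.69% and 2.15%. Of the knockout cells, 1021 (63.7%) were female and 557 (34.8%) male, and of the control cells 356 (22.6%) were female and 1197 (76.1%) male. Cells with UMIs of both sexes, which may be doublets, numbered 16 and 15, and the doublet caller Scrublet marked 10 cells in each library's low bin. The libraries listed 16 barcodes in common, 0 of which were in the low bin of both. Because sex and genotype are mixed unequally, levels are given for each sex within each library.

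Erythroid identity could be read from markers that the gate did not use. Gata1 was at 131 in knockout against 134 CPM in control cells, the erythropoietin receptor gene Epor at 102 in knockout against 113 CPM in control cells, and the transferrin receptor gene Tfrc at 234 in knockout against 249.8 CPM in control cells. Without Klf1, which the gate used, the other 10 erythroid markers found in the files summed to 1307 CPM in knockout and 1708 CPM in control cells, and none was at 0. Car2 gave the largest part of both sums, 405 and 699.9 CPM. Late genes were scarce, with the band 3 gene Slc4a1 at 1.05 and 1.16 CPM and the erythroid haem synthesis gene Alas2 at 2.06 and 1.55 CPM.

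Markers of other cell types were split by whether the gate had limited them. Of the 10 granulocyte and monocyte markers, which summed to 21.6 CPM in knockout and 39.3 CPM in control cells, the gate limited 6, among them Mpo at 5.78 and 11.4 CPM, and low values of these were fixed by the choice of cells. The 4 that it left free summed to 2.46 and 6.53 CPM, and none was at 0. Myeloid cells of the same libraries, used below as a reference, were defined by at least 30 UMIs of Mpo and Prtn3 and no Klf1 UMI (527 knockout and 887 control cells). The 8 megakaryocyte markers other than Pf4, the one that the gate limited, summed to 40.6 and 31.7 CPM, led by Gp5 at 10.4 and 9.07 CPM. All 4 embryonic (primitive erythroid) globin markers were under 1 CPM in both libraries, and Hbb-bh2 was at 0. The 3 mast and basophil markers left free by the gate summed to 1.29 and 1.06 CPM, lymphoid markers to 0.160 and 0.109 CPM with Cd3e at 0, macrophage markers to 0.407 and 0.832 CPM, and endothelial markers to 2.88 and 2.75 CPM. The 6 stem and multipotent markers left free summed to 110.2 and 131 CPM, of which Mllt3, which was higher still in the later erythroid cells, gave 106 and 128 CPM. Hepatocyte markers summed to 17.9 and 3.68 CPM, but for each of Afp and Alb 1 cell held most of the knockout UMIs. That cell held 86.5% of the Afp UMIs and, for Alb, 79.4% in the low bin. Whether the same barcode held both was not tested. The part of these other cell types in the ratios given below was not tested.

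The ranking itself placed the members as follows. Alpha-globin had a median of 105 CPM in knockout and 116 CPM in control cells, with the 10th percentile at 33.1 and 26.9 CPM and the 90th at 232 and 246 CPM. No alpha-globin UMI was found in 66 knockout (4.12%) and 85 control (5.41%) cells. The myeloid cells without Klf1 held Hba-a1 at 32.5 in knockout and 23.6 CPM in control cells. They held Hba-a2 at 27.1 and 21.0 CPM. The share of free RNA (RNA of other cells in the suspension) in the ranking was not tested. The highest member stood at 290.2 and the lowest cell outside at 290.5 CPM, and the 100 cells on either side of the boundary spanned 272 to 306 CPM. There was no gap at the boundary, so the low bin is a range along a continuum and not a separate cell type. The low bin made up 34.4% (exact binomial 95% interval 33.1 to 35.8) of gated knockout and 32.3% (31.0 to 33.6) of gated control cells, a ratio of shares of 1.07 (1.01 to 1.13). This ratio was 0.977 when the lowest 50% of cells were taken and 1.14 for the lowest 25%, and it was 1.19 within female and 0.991 within male cells, so its direction depended on the boundary and on the sex of the cells.

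**Figure D1:**
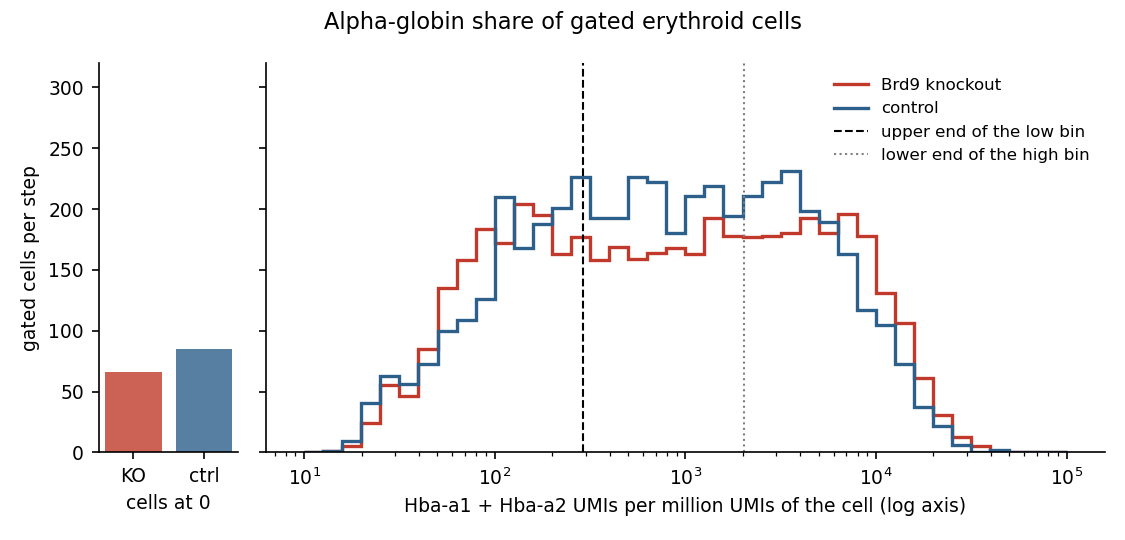
Number of gated erythroid cells per step (y axis) by alpha-globin CPM of the cell (x axis, log scale), with the cells at 0 as bars on the left, in the knockout (red) and the control library (blue). The dashed line marks the upper end of the low bin at 290.2 CPM and the dotted line the lower end of the high bin at 2038 CPM. Cells are spread along the whole range with no gap at either line.

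Genes that the ranking did not use placed these cells at the early end of the lineage. They are a description, since alpha-globin and erythroid maturation go together. From the low to the high bin, Kit went from 87.2 to 15.3 CPM in the knockout and from 98.7 to 12.2 CPM in the control. Myb, a transcription factor of proliferating progenitors, went from 199.95 to 31.6 CPM and from 221 to 28.6 CPM. Gata2, which precedes Gata1 in the lineage, was at 9.56 in knockout against 7.63 CPM in control cells of the low bin and at 1.02 and 0.777 CPM in the high bin. The steepest decline among the 1745 genes with at least 100 CPM in the low or the high bin of each library, ranked by the weaker library, was that of Cmtm7, a membrane protein gene, from 134 and 124 to 10.6 and 7.51 CPM. Other early genes by the same ranking were the cell cycle kinase gene Cdk6 (low bin 270.3 and 290.2 CPM), the corepressor gene Cbfa2t3 (139.8 and 117 CPM), the histone gene H2afy (209.6 and 184 CPM) and the Arp2/3 subunit gene Arpc1b (142 and 118 CPM).

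The late genes ran the other way. The mitochondrial iron importer gene Slc25a37 was at 28.5 in knockout against 30.6 CPM in control cells of the low bin and at 217 and 232 CPM in the high bin. Sox6, a transcription factor of definitive erythroid maturation, went from 9.11 to 198 CPM in the knockout and from 14.3 to 280.1 CPM in the control. Klf1 was already at 245 in knockout against 269 CPM in control cells of the low bin, with 334 and 352 CPM in the high bin. Genes of S phase summed to 3469 CPM in knockout and 3476 CPM in control cells, and those of G2 and mitosis to 3263 and 3370 CPM.

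**Figure D2:**
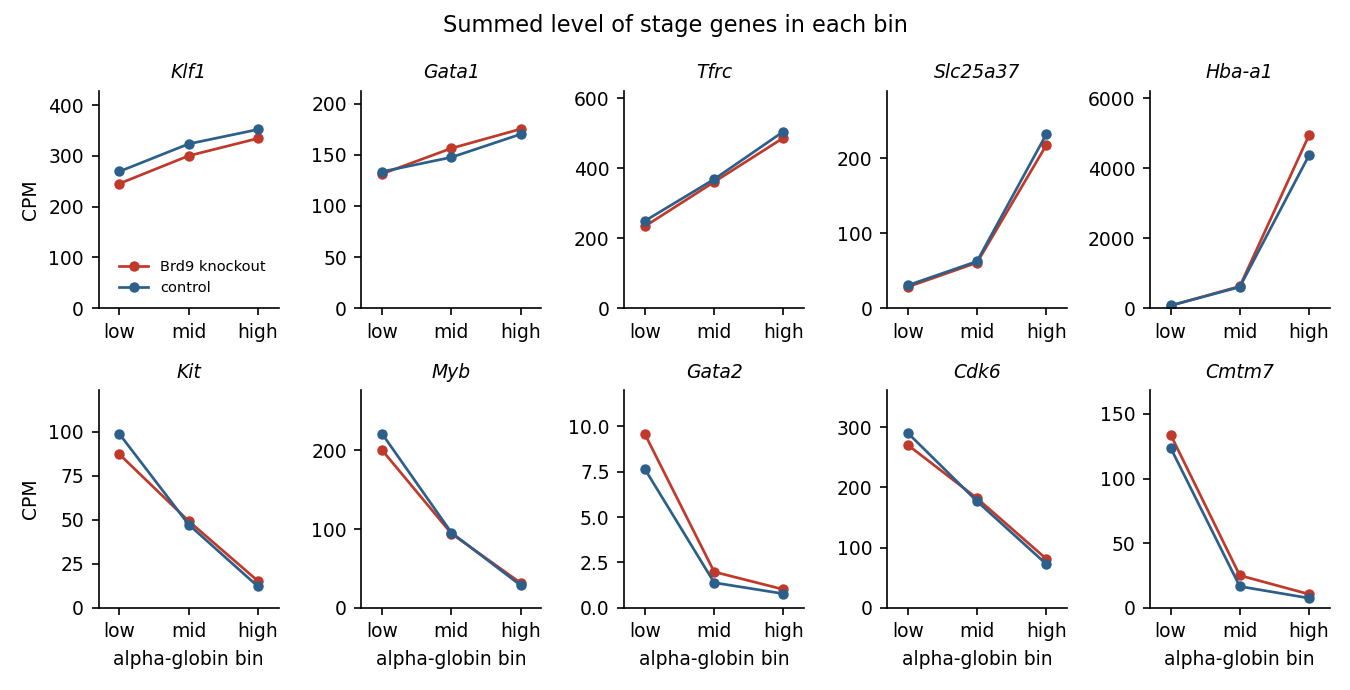
Summed level in CPM (y axis, from 0) of 10 genes in the low, middle and high alpha-globin bin (x axis), with 1 point per library (red, knockout; blue, control). Kit, Myb, Gata2, Cdk6 and Cmtm7 are highest in the low bin, and Klf1, Gata1, Tfrc, Slc25a37 and Hba-a1 are lowest there, in both libraries. Hba-a1 was part of the ranking, so its order was fixed by the choice of bins, and Klf1 was used by the gate.

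The libraries were close over the transcriptome of these cells. Of 4936 genes that reached 30 CPM in a library, 11 (0.223%) were higher in the knockout by at least 0.5 on the log2 scale and 29 (0.588%) were lower by as much. The median log2 ratio was 0.01, and the 5th and 95th percentiles were -0.16 and 0.16. These calls rest on size alone, with no test, and Xist, Tsix and Y-linked genes were left out of them. The count depended on the minimum level, with 52 higher and 63 lower at a minimum of 10 CPM and 4 and 10 at a minimum of 100 CPM. Male cells alone gave 45 lower genes. Within both sexes taken separately, 8 of the 11 higher and 24 of the 29 lower genes were past the same fold in the same direction.

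**Figure D3:**
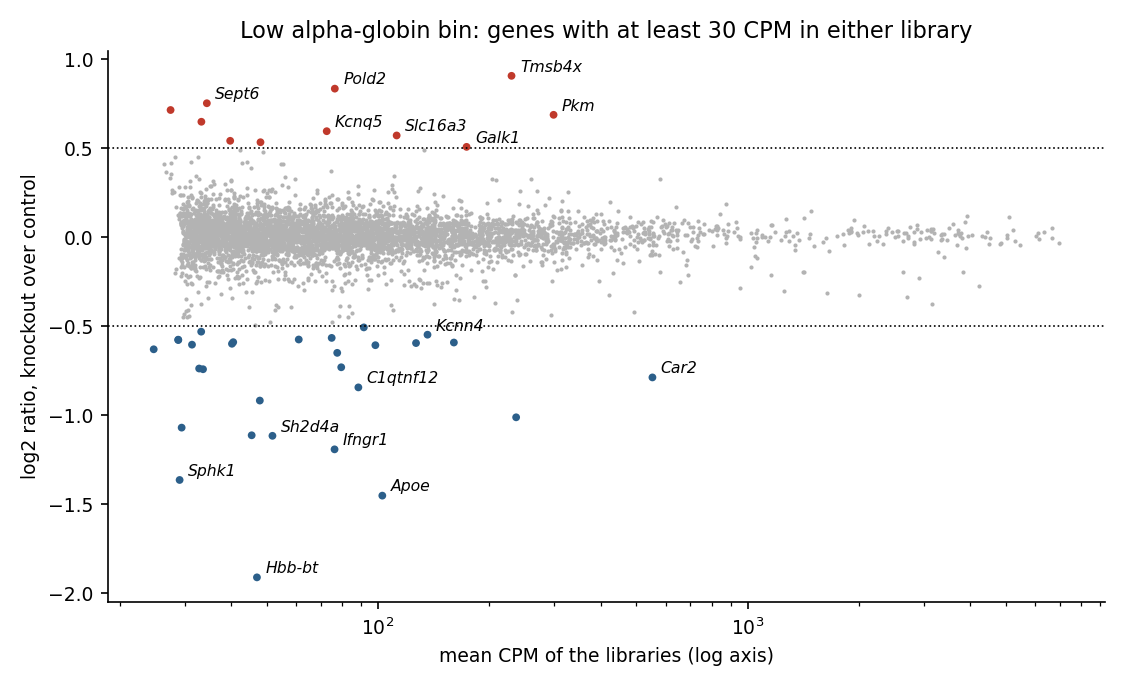
Log2 ratio of knockout over control (y axis) against the mean CPM of the libraries (x axis, log scale) for each of the 4936 genes of the low bin that reached 30 CPM in a library. Dotted lines mark 0.5 in either direction, with the 11 higher genes in red, the 29 lower genes in blue and the others in grey.

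The lowest ratio belonged to a beta-globin gene. Hbb-bt (chr7:103812524-103813996) and its neighbour Hbb-bs (chr7:103826534-103828096) encode the adult beta-globins and are nearly identical, so the division of UMIs between them is uncertain. Hbb-bt was at 19.8 in knockout against 74.3 CPM in control cells, a log2 ratio of -1.91 (95% interval -2.00 to -1.82), whereas Hbb-bs was at 77.1 in knockout against 66.4 CPM in control cells, a log2 ratio of 0.22 (95% interval 0.16 to 0.27). By sex, Hbb-bt was at 21.0 CPM in female and 17.5 CPM in male knockout cells, and 82.0 CPM in female and 71.7 CPM in male control cells, so both knockout groups were below both control groups. The myeloid cells without Klf1, which should lack globin, held Hbb-bt at 13.8 in knockout against 53.1 CPM in control cells and Hbb-bs at 48.5 in knockout against 39.3 CPM in control cells. Thinned to 15000 UMIs, 23.6% of knockout and 59.5% of control cells in the low bin held an Hbb-bt UMI, and 17.3% of knockout and 50.6% of control cells among the myeloid cells. Before thinning the shares were 48.2% and 88.8% in the low bin and 30.7% and 74.6% in the myeloid cells, whose median depth was 29819 and 31677 UMIs. In each library the myeloid cells thus held less Hbb-bt than the low bin, and the ratio had the same sign in both cell groups. The low bin was also divided into parts by alpha-globin. From the lowest to the highest part, Hbb-bt was at 16.8, 18.3 and 24.3 CPM in the knockout. In the control it was at 55.9, 64.0 and 97.7 CPM. The share of free RNA in these levels was not tested, so Hbb-bt is not read here as a measure of expression in the early cells. In the high bin, where globin is abundant, Hbb-bt was at 1069 and 4342 CPM and Hbb-bs at 4746 and 4381 CPM. Whether the libraries carried the same beta-globin alleles was not tested, so no Hbb-bt ratio given here is read as a difference in expression alone.

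The 250 bases before the RefSeq start of each beta-globin gene are shown as a description of these neighbours. Their relation to the ratios was not tested. RefSeq starts these genes inside the GENCODE ranges given above, so the windows overlap those ranges. They are sequence of GRCm38.p6, the build that mm10 names, on the minus strand at chr7:103827929-103828178 for Hbb-bs and chr7:103813924-103814173 for Hbb-bt, with capitals for matches to 4 short motifs on either strand. The first is the TATA box, searched as ATATAA. The second is the box bound by the factor NF-Y, searched as CCAAT. The next is the box bound by Klf1, searched as CCACACCC. The last is the motif of Gata1, searched as AGATAA.
Hbb-bs: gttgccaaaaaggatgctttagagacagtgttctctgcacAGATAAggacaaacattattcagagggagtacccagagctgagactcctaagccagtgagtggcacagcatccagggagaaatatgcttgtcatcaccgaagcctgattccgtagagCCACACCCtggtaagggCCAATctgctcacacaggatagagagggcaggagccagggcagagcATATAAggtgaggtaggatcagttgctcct
Hbb-bt: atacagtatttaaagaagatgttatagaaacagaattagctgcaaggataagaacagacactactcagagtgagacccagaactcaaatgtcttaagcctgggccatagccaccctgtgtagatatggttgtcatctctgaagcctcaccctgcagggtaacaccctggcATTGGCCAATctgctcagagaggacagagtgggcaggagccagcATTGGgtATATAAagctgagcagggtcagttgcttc
Both hold ATATAA, which 9.10% of 32851 RefSeq promoter windows of this length hold, and CCAAT, which 33.8% hold. Hbb-bt has CCAAT 3 times, 2 of them on the other strand as ATTGG, and 1 of these lies directly beside the forward match. CCACACCC (3.20% of windows) and AGATAA (9.99%) were found in Hbb-bs and not in the same letters in Hbb-bt. The windows shared 178 of 243 aligned bases (73.3%). A match is a run of letters and not a measured binding site.

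Several of the lower genes are known from mature red cells. Car2 (chr3:14886273-14900770), the gene of carbonic anhydrase 2, which hydrates carbon dioxide in red cells, was the most abundant of those named, at 408 CPM in female and 399 CPM in male knockout cells, and 677 CPM in female and 705 CPM in male control cells. All knockout values lay below all control values, and the log2 ratio was -0.79 (95% interval -0.81 to -0.77). Across single cells, from the 10th to the 90th percentile, knockout cells ran from 194 to 635 CPM with a median of 379.9 CPM and control cells from 374 to 1019 CPM with a median of 680.2 CPM. The distribution as a whole was therefore lower in the knockout, with wide overlap between cells. Add2, the gene of beta-adducin, which caps actin at the membrane skeleton, was at 60.4 in knockout against 89.4 CPM in control cells (log2 ratio -0.57). The water channel gene Aqp1 was at 19.4 in knockout against 30.03 CPM in control cells (log2 ratio -0.63), and Kcnn4, the calcium-activated potassium channel of red cells, at 111 in knockout against 162 CPM in control cells (log2 ratio -0.55). Hemgn, a nuclear protein gene of erythroid cells, was at 30.3 CPM in female and 25.6 CPM in male knockout cells, and 65.6 CPM in female and 60.8 CPM in male control cells, with a log2 ratio of -1.11 (95% interval -1.19 to -1.04). In the myeloid cells Hemgn and Add2 were both under 4 CPM in both libraries.

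Genes of the BCL2 family regulate cell survival. Of 6 BCL2 family genes with at least 30 CPM, 4 had positive and 2 negative log2 ratios with a median of 0.01, and the lowest was -0.28 for Bnip3l, a mitophagy receptor of maturing red cells (115 and 139 CPM).

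The rest of the lower end was mixed, with signalling and lipid genes among others. Sphk1 (chr11:116530925-116536674), which makes the lipid mediator sphingosine 1-phosphate, was at 17.2 CPM in female and 14.53 CPM in male knockout cells, and 35.7 CPM in female and 43.4 CPM in male control cells, with a log2 ratio of -1.36 (95% interval -1.46 to -1.26). Spns2, an exporter of the same lipid, had the opposite sign at 47.2 in knockout against 32.4 CPM in control cells, a log2 ratio of 0.54 (95% interval 0.46 to 0.62). Mfsd2b, also of the lipid transport list and more abundant than Spns2, was at 58.5 in knockout against 62.7 CPM in control cells (log2 ratio -0.10). Ifngr1 (chr10:19591949-19610229), the ligand-binding chain of the interferon gamma receptor, was at 48.6 CPM in female and 43.0 CPM in male knockout cells, and 96.8 CPM in female and 109 CPM in male control cells, with a log2 ratio of -1.19 (95% interval -1.25 to -1.13). It also differed in the myeloid cells, at 94.2 in knockout against 151 CPM in control cells. Sh2d4a, an SH2 domain adaptor gene, was at 32.7 in knockout against 70.9 CPM in control cells (log2 ratio -1.12), and the G protein subunit gene Gna15 at 24.6 in knockout against 41.0 CPM in control cells (log2 ratio -0.74). The other genes named at this end were Epdr1 (log2 ratio -0.92), the secreted C1q family gene C1qtnf12 (-0.84), the carboxypeptidase gene Cpd (-0.74) and Ripor2 (-0.73). A further 12 lower genes had log2 ratios from -0.65 to -0.51.

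Apoe, the gene of apolipoprotein E, had the second lowest ratio and was also found outside the erythroid gate. It was at 54.4 CPM in female and 52.8 CPM in male knockout cells, and 131 CPM in female and 158 CPM in male control cells, with a log2 ratio of -1.45 (95% interval -1.51 to -1.40). The myeloid cells held more of it, at 141 in knockout against 388 CPM in control cells, whereas the high bin held 5.83 and 11.7 CPM. When the low bin was itself divided in 3 by alpha-globin, Apoe was at 101, 46.4 and 18.4 CPM from the lowest to the highest part in the knockout and at 294, 142 and 43.4 CPM in the control. The level was thus lower in each successive part of both libraries, and the middle bin of the gate held 9.92 and 15.9 CPM. No cell held more than 2.48% of the knockout Apoe UMIs. After thinning, an Apoe UMI was found in 34.2% of knockout and 55.5% of control cells of the low bin and in 56.4% of knockout and 80.0% of control cells of the myeloid group, and the part of free RNA in the erythroid level was not tested.

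At the upper end stood Tmsb4x (chrX:167207093-167209315), an X-linked gene whose product, thymosin beta 4, binds actin monomers. It was at 299 CPM in female and 299 CPM in male knockout cells, and 168 CPM in female and 159 CPM in male control cells. Both knockout groups lay above both control groups, and the log2 ratio was 0.91 (95% interval 0.87 to 0.94), with 0.83 in female and 0.91 in male cells. Myeloid cells held Tmsb4x at 5789 in knockout against 4949.8 CPM in control cells, and the share that free RNA gives to the erythroid level was not tested. The septin gene Sept6, also X-linked, was at 42.9 CPM in female and 44.3 CPM in male knockout cells, and 25.7 CPM in female and 25.9 CPM in male control cells, with a log2 ratio of 0.75 (95% interval 0.67 to 0.84). Emp3, a membrane protein gene, was at 156 in knockout against 111 CPM in control cells, a log2 ratio of 0.49, just under the fold.

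Pkm (chr9:59656368-59679375) encodes the pyruvate kinase of glycolysis in progenitors, which mature red cells replace with the product of another gene. It was at 359.6 CPM in female and 386 CPM in male knockout cells, and 235 CPM in female and 226 CPM in male control cells, and the knockout groups lay above the control groups. Its log2 ratio was 0.69 (95% interval 0.66 to 0.71), and single knockout cells ran from 145 to 606 CPM with a median of 342 CPM, against 51.0 to 448 CPM with a median of 196 CPM in the control (10th to 90th percentile). Slc16a3, a lactate exporter gene, was at 134 in knockout against 90.4 CPM in control cells (log2 ratio 0.57). Galk1, the gene of galactokinase, was at 204 in knockout against 143 CPM in control cells (log2 ratio 0.51). Further glycolysis genes had smaller ratios: Aldoa (aldolase) was at 644 in knockout against 514 CPM in control cells (log2 ratio 0.33), Pgam1 at 288 in knockout against 230.3 CPM in control cells (0.32) and Eno1 at 231 in knockout against 185 CPM in control cells (0.32), and Hk1 (hexokinase) had the single negative one among those with at least 30 CPM (-0.04). Of 11 glycolysis genes with at least 30 CPM, 10 had positive log2 ratios and 1 negative. Past the fold was 1, beside 0.223% of all genes, and the median was 0.15 beside 0.01. The list was chosen with earlier results of these data known, so these counts are a description only.

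Bicral (chr17:46798120-46858482), a partner of Brd9 in the non-canonical BAF complex, was at 41.4 CPM in female and 39.6 CPM in male knockout cells, and 27.8 CPM in female and 25.2 CPM in male control cells. Its log2 ratio was 0.65 (95% interval 0.56 to 0.73), and neither sex overlapped between genotypes. The paralogue Bicra was at 25.6 in knockout against 22.6 CPM in control cells, under the 30 CPM minimum, with a log2 ratio of 0.18 (95% interval 0.09 to 0.28). Of 19 other BAF and PBAF subunits with at least 30 CPM, 0 were past the fold, beside 0.223% of all genes higher and 0.588% lower. Their log2 ratios ran from -0.13 for Smarcc1 to 0.13 for Bcl7c.

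Pold2 (chr11:5872180-5878292), a subunit gene of the replicative DNA polymerase delta, differed between the sexes of the control. It was at 97.8 CPM in female and 98.5 CPM in male knockout cells, and 84.1 CPM in female and 46.0 CPM in male control cells. The knockout sexes were alike, but control female cells lay closer to the knockout than to control male cells, giving log2 ratios of 0.22 in female and 1.10 in male cells and 0.83 over all. The Pold2 value over all cells therefore rests largely on control male cells. The 24 S phase genes of the list, Pold2 included, had a median log2 ratio of -0.01, and 1, Pold2 itself, was past the fold upward, beside 0.223% of all genes. Prkca (protein kinase C alpha) was at 34.1 in knockout against 20.8 CPM in control cells (log2 ratio 0.71), the potassium channel gene Kcnq5 at 87.4 in knockout against 57.9 CPM in control cells (0.60), and the microtubule protein gene Eml4 at 56.9 in knockout against 39.3 CPM in control cells (0.53). Lyrm9 (log2 ratio 0.49) and the MHC class I gene H2-K1 (0.48) were just under the fold.

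**Figure D4:**
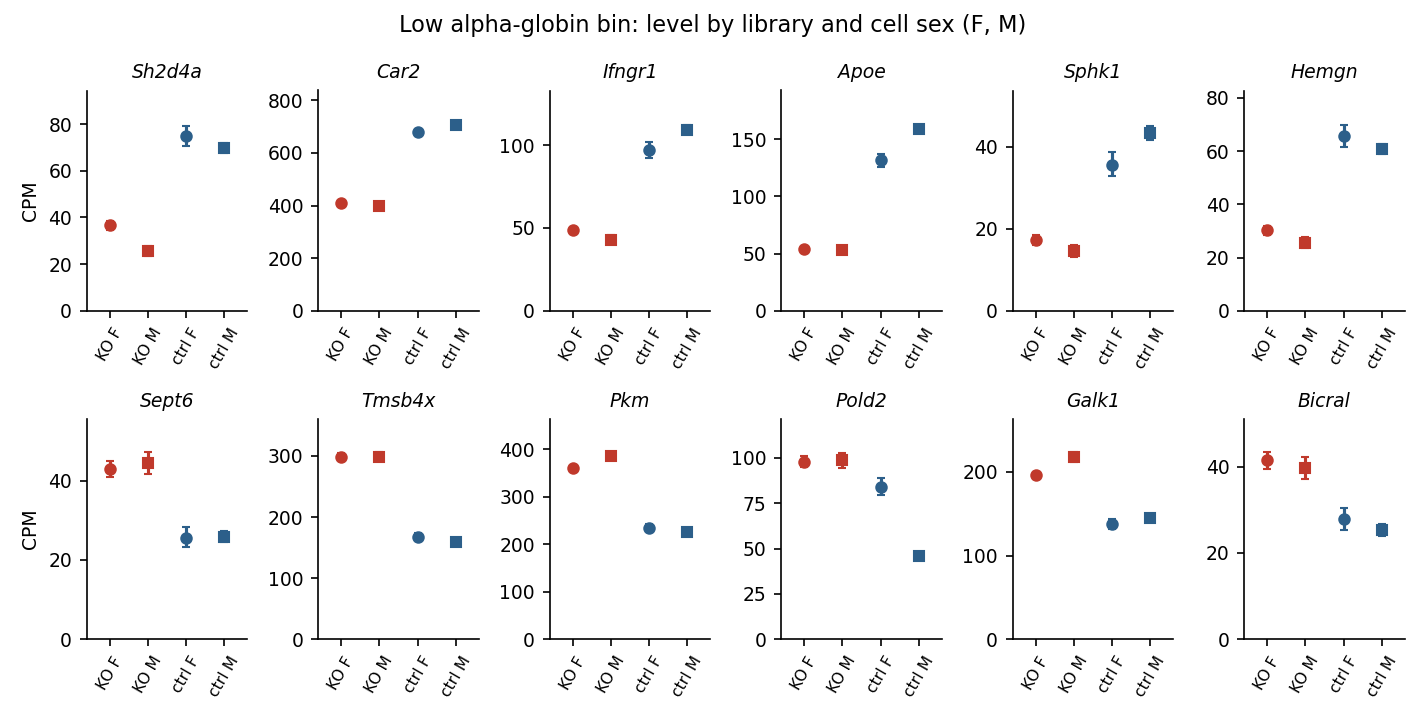
Summed level in CPM (y axis, from 0) of 12 genes in the low bin, in female (circles) and male (squares) cells of the knockout (red) and control library (blue). Bars are exact Poisson 95% intervals of the counts. For the 12 genes shown, knockout and control values do not overlap, and for Pold2 the control female cells lie nearer to the knockout than to the control male cells.

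The regulators of erythroid identity had ratios on either side of 0. Of 14 erythroid transcription factors with at least 30 CPM, 4 had positive and 10 negative log2 ratios, with a median of -0.03, and 0 were past the fold, as were few genes in all (0.223% higher and 0.588% lower). Tal1 was lowest at 95.2 in knockout against 114 CPM in control cells (log2 ratio -0.27), and Cbfa2t3, a Tal1 partner, highest at 139.8 in knockout against 117 CPM in control cells (0.26). Klf1 itself, a gate gene, was at 245 in knockout against 269 CPM in control cells (-0.13), and Gata1 had a log2 ratio of -0.02. Progenitor factors and receptors with at least 30 CPM had 3 of 7 positive ratios, with a median of -0.02. The 5 under that level, Gata2, Cd34, Meis1, Fli1 and Mycn, all had positive ratios. Kit, on which the cells were sorted, was at 86.8 CPM in female and 87.5 CPM in male knockout cells, and 95.5 CPM in female and 100.2 CPM in male control cells, a log2 ratio of -0.18. Erythropoietin signalling genes with at least 30 CPM had 3 of 8 positive ratios with a median of -0.07, and Epor itself had a log2 ratio of -0.15.

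Haem, iron and membrane genes had medians close to 0, and the channel and transporter list a lower one. Counts are of list members with at least 30 CPM. The 3 haem synthesis genes under that level, Alas2, Alas1 and Uros, had log2 ratios of 0.41, 0.15 and 0.01. Of 11 haem synthesis genes 8 had negative ratios, with a median of -0.07, the lowest being Urod, of the porphyrin pathway, at 131 in knockout against 158 CPM in control cells (-0.27). Of 9 iron genes 5 were negative, with a median of -0.09. The ferritin genes Fth1 and Ftl1 were at 2452 and 1316 CPM in the knockout and 2806 and 1508 CPM in the control, and the iron exporter gene Slc40a1 had the lowest ratio of the list (-0.43). Of 15 membrane and cytoskeleton genes 10 were negative and 2, Add2 among them, were past the fold, beside 0.588% of all genes, and the median was -0.04. The blood group genes Ermap and Rhd, of that list, had log2 ratios of -0.42 and -0.24. Of 9 carbonic anhydrase, channel and transporter genes, 3 were past the fold downward, beside 0.588% of all genes. Upward, 1 was past it (Kcnq5), beside 0.223%. The median was -0.28, below the 5th percentile of all genes. Like every list here, this one was chosen with earlier results of these data known, so its counts are a description only. The sodium pump subunit gene Atp1b2 was just under the fold with a log2 ratio of -0.47.

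Most of the remaining lists had medians near that of all genes, of which 54.7% had a positive ratio. Members under 30 CPM were again not counted. They made up 10 of 14 p53 target, 11 of 14 immediate early and 11 of 18 Polycomb and DNA methylation genes, among others. Ribosome biogenesis genes had 17 of 18 positive but a median of 0.03, and G2 and mitosis genes 18 of 22 negative with a median of -0.04. CTCF and cohesin genes had 8 of 11 negative (median -0.05), Polycomb and DNA methylation genes 4 of 7 positive (median 0.00), DNA repair genes 6 of 10 positive (median 0.03) and unfolded protein genes 6 of 8 positive (median 0.06). Xrcc4, of DNA end joining, was the highest of the repair genes at 32.6 in knockout against 23.9 CPM in control cells (0.45). All 5 cholesterol synthesis genes with at least 30 CPM were positive over all cells (median 0.10), but their median was 0.22 in female and -0.08 in male cells. The other 12 of the 17 on the list were under that minimum and not counted. In the serine, glycine and one-carbon list, Shmt1 and Mthfd1, both folate enzyme genes, had log2 ratios of 0.41 and -0.33, and the median was 0.05. Immediate early genes, which respond to handling, had 2 of 3 positive ratios (median 0.25), with log2 ratios of 0.31 for Junb and 0.25 for Ier2. The p53 target genes had 3 of 4 positive (median 0.02), autophagy genes 3 of 5 (median 0.02) and interferon and MHC genes 2 of 7 (median -0.07). Actin genes had 7 of 10 positive (median 0.05), cyclins 3 of 6, lipid transport genes 2 of 5 and the 4 globins with at least 30 CPM 1. Vim, an intermediate filament gene of the actin list, had a log2 ratio of -0.39, and -0.66, -0.26 and 0.02 in the parts of the low bin described below.

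The genes of the early cells mostly kept their direction later in the lineage. The middle bin had 15 of 4970 genes higher (0.302%) and 25 lower (0.503%), and the high bin 14 of 4828 higher (0.29%) and 23 lower (0.476%). Of the 11 genes higher in the low bin, 11 were past the same fold in the middle and 10 in the high bin. Of the 29 lower genes, 21 and 17 were, and all 29 had a negative ratio in both. The size of the ratio differed along the lineage in named cases. The log2 ratio of Pkm went from 0.69 to 0.97 and 1.02, Spns2 from 0.54 to 0.99 and 1.32, and Kcnq5 from 0.60 to 1.04 and 1.35, with levels that were lower in the high bin. The log2 ratio of Ifngr1 went the other way, from -1.19 to -1.03 and -0.51, as did that of Gna15, from -0.74 to -0.67 and -0.13. Car2 had log2 ratios of -0.79, -0.79 and -0.86. No replicate exists to test these differences between bins.

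**Figure D5:**
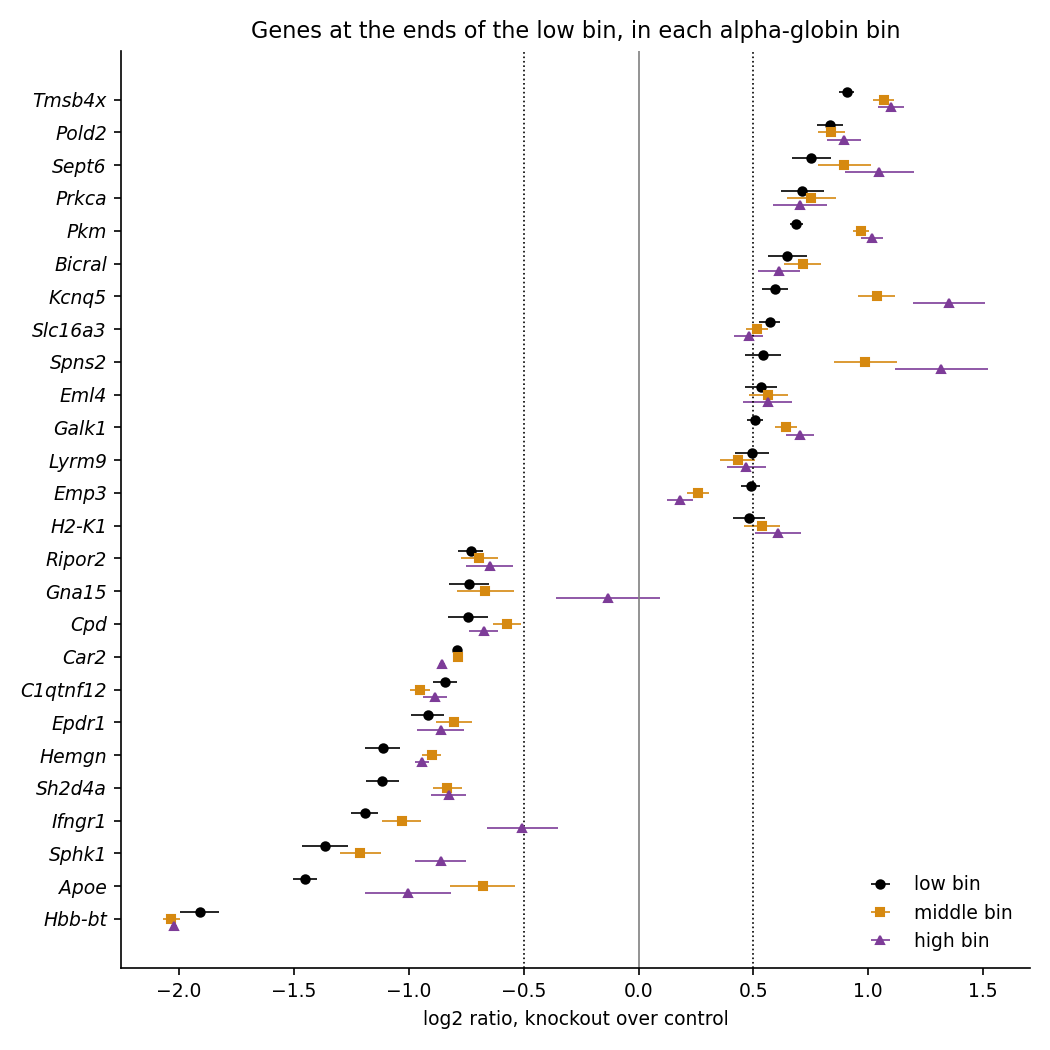
Log2 ratio of knockout over control (x axis) in the low (black circles), middle (orange squares) and high (purple triangles) alpha-globin bin for the 14 highest and 12 of the 14 lowest genes of the low bin. Bars are conditional exact 95% intervals, which cover counting error only, and dotted lines mark 0.5 in either direction. Most genes keep their side of 0, with Gna15 nearest to 0 in the high bin.

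The genes named next had the largest gaps between their ratios in the low and the high bin, among those with at least 30 CPM in both, 5 in each direction. Elovl6, which lengthens fatty acids, was at 71.6 and 61.4 CPM in the low bin (log2 ratio 0.22) and at 36.6 and 22.7 CPM in the high bin (0.69). The log2 ratio of Fads2, a fatty acid desaturase gene, went from -0.06 to 0.41, Pafah1b3 from 0.28 to 0.73, Ifitm2 from -0.07 to 0.39 and Tagln2 from 0.18 to 0.61. The other direction was taken by Redrum, an erythroid long noncoding RNA, from 0.45 to 0.07, and by Emp3, from 0.49 to 0.18. Lower late than early were Eid1 (-0.15 to -0.49), Mkrn1 (-0.16 to -0.47) and Gstm5 (-0.26 to -0.56). Kit was lower in the knockout early (log2 ratio -0.18) and higher late (0.33, at 15.3 and 12.2 CPM).

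To see where along the low bin the differences lay, it was divided in 3 by alpha-globin, at 75.3 and 152 CPM. This gave 544, 560 and 498 knockout and 514, 498 and 560 control cells. The part with least alpha-globin held Hba-a1 at 25.6 in knockout and 24.1 CPM in control cells. Its Hba-a2 was at 20.0 and 15.9 CPM. These levels were near those of the myeloid cells, and the share of free RNA in this order was not tested. Of the 11 higher genes, 8 were past the fold in the part with least alpha-globin, 9 in the next and 11 in the last, and of 17 lower genes that the rule for named genes takes, 16, 17 and 16 were. The 4 that were under the fold in the first part were Cpd (log2 ratios -0.35, -0.59 and -0.91), Spns2 (0.35, 0.47 and 0.85), Eml4 (0.42, 0.52 and 0.64) and Galk1 (0.44, 0.44 and 0.60). All of these genes had the same sign in the 3 parts. From the lowest to the highest of these parts, Car2 had log2 ratios of -0.73, -0.75 and -0.81, which were nearly constant. Tmsb4x had log2 ratios of 0.72, 0.89 and 1.10, as its level went through 379, 303 and 216 CPM in the knockout and 231, 163 and 100.4 CPM in the control. Those of Pkm were 0.58, 0.67 and 0.78 and those of Pold2 0.80, 0.82 and 0.86. For the progenitor gene Gata2 the knockout had 17.1, 7.23 and 4.61 CPM and the control 15.98, 6.15 and 2.28 CPM, so the libraries were closest in the part with least alpha-globin. The log2 ratio of Brd9 was -2.15, -2.41 and -2.06 over the same parts.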

How the data were processed

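Single-cell UMI counts per gene and barcode were deposited by the authors as 1 matrix per library, made with Cell Ranger 7.2.0 per the file headers, with mm10 per the submitters' processing notes. The sources used here do not say if intronic reads count. All 32285 listed genes were read. Barcodes needed 1000 genes, 2000 UMIs and no more than 10% of UMIs from mitochondrial genes to be kept (7001 of 7289 knockout, 7100 of 7399 control). The erythroid gate asked for at least 3 Klf1 UMIs, fewer than 3 of Med12l and Prkg1, fewer than 30 of Mpo and Prtn3, fewer than 30 of S100a8 and S100a9, fewer than 10 of Pf4, fewer than 4 of Irf8 and Ly86, and fewer than 4 of Ms4a2, Mcpt8, Gzmb and Fcer1a, and left 4651 knockout and 4870 control cells, which were ranked together by Hba-a1 plus Hba-a2 UMIs per 1000000 and cut into 3 equal bins. Cells were called female with at least 3 Xist and at most 1 Y-linked UMI, and male with at most 1 Xist UMI. Doublets were marked with Scrublet (scanpy 1.11.5, expected rate 6%) and were not removed.

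Counts were summed over cells of a library, divided by the sum over all genes and given per 1000000 (CPM). A log2 ratio carries a conditional exact (Clopper-Pearson) 95% interval, which covers counting error only. With 1 library per genotype no test was run, and a gene with at least 30 CPM in either library was called by a log2 ratio of at least 0.5 in size. Shares of cells with a UMI were compared after thinning to 15000 UMIs, which left out 7 knockout and 7 control cells of the low bin and 13 and 7 myeloid cells. The ratio and interval code was tested on simulated data. Genes named are the 14 highest and 14 lowest ratios, the 5 largest gaps in each direction between the low and the high bin, the 8 steepest stage genes in each direction with at least 100 CPM, up to 4 members of each gene list, and Brd9, Bicra, Bicral, Klf1, Kit, Gata1, Gata2, Epor, Tfrc and the globins; predicted, mitochondrial, Y-linked and ribosomal protein genes, Xist and Tsix did not enter the ranking, and list members Hk1 and Atp1b2 were added after their values were seen. Some genes that the rule takes are not reported here. The members and all gene lists were chosen with earlier results of these data known. Coordinates are of the GENCODE M21 annotation of mm10, which held 32158 of the identifiers, and promoters are RefSeq sequence of GRCm38.p6. Alternatives varied the bin, the gate, the filters, the scaling, the doublets and the sex of the cells. Python 3.11.15, numpy 2.4.6, scipy 1.17.1, pandas 2.3.3 and matplotlib 3.10.9 were used.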

Additional observations from a re-analysis of the deposited data

How the results depend on the processing

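No paired analysis was possible because each group has 1 library, so fewer than 2 replicate numbers are shared. The count of genes past the fold depended on the minimum level. At 10 CPM it was 52 higher and 63 lower, at 100 CPM 4 and 10, against 11 and 29 at 30 CPM, and male cells alone gave 45 lower. The log2 ratio of Brd9 was -2.54 in male cells against -2.21 over all. The ratio of the shares that the low bin made up (1.07) was 1.14 for the lowest 25% of cells and 1.19 in female cells, and it turned below 1 for the lowest 50% (0.977) and in male cells (0.991). The cause was not tested. Ranking within each library gives no such ratio by construction. Of the 40 calls, 31 held in female cells, 34 in the lowest 25%, and between 38 and 40 under the lowest 50%, the stricter Klf1 minimum, the gate on thinned counts, a total without globins, the removal of Scrublet doublets or of mixed-sex cells, the stricter cell filter, median-ratio scaling, per-cell means, reweighting to the control's alpha-globin and male cells. None of the 28 calls that the rule for named genes takes changed sign under any of these. The limits are the single library per genotype, the unequal sexes and unknown number of embryos, free RNA at low levels, and the near-identical globin copies.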

Other observations

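Some genes under the 30 CPM minimum had large ratios, and they were picked out after their values were seen. Meis1, a homeobox gene of stem cells and megakaryocytes, was at 16.4 in knockout against 8.45 CPM in control cells (log2 ratio 0.96, 95% interval 0.82 to 1.10). Of the megakaryocyte markers, Itga2b was at 8.76 and 7.24 CPM, and Pf4, which the gate limited, at 0.755 and 0.463 CPM. Pfkp, the platelet-type phosphofructokinase of glycolysis, was at 28.1 in knockout against 14.4 CPM in control cells (log2 ratio 0.97). The muscle-type enzyme gene Pfkm went the other way, at 21.8 against 29.3 CPM (log2 ratio -0.42).

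By position, 5 of the 11 higher genes lay on chromosome 11, which holds 8.77% of the genes tested. Another 2, Tmsb4x and Sept6, lay on chromosome X, which holds 2.80%. Of the 29 lower genes, 5 lay on chromosome 7, which holds 6.58%, and 0 on X. In the control library 14 of the 29 lower genes (48.3%) were higher in the high than in the middle alpha-globin bin, against 1 of the 11 higher genes (9.09%) and 31.7% of all 4936 genes tested. No test was made of these counts.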
